A study of Homo sapiens with 6 samples.

Results

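Matrix metalloproteinases (MMPs) are zinc-dependent enzymes that cut the proteins of the extracellular matrix, and the tissue inhibitors of metalloproteinases (TIMPs) bind their active sites and block them. The genes described here are 10 of the 56303 in the deposited table, those named MMP1, MMP2, MMP3, MMP9, MMP10, MMP13, MMP14, TIMP1, TIMP2 and TIMP3, chosen by name, with earlier results of these data known. They are 7 genes for enzymes and 3 for inhibitors. Most MMPs are secreted as inactive proenzymes and become active when a propeptide is cut off, by plasmin, by furin-like convertases or by another MMP. In bladder carcinoma, as in other carcinomas, these enzymes are studied for their part in the breakdown of the basement membrane and stroma during invasion.

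The data are RNA-seq counts from cells labelled T24, a bladder carcinoma cell line of human origin, given as wild type. The cells were transfected with a negative control siRNA (siNC) or with siRNA against FBXL6 (siFBXL6), an F-box protein gene, and by the methods of the study RNA was taken after 48 h. There were 3 libraries per group, prepared from poly(A) RNA with a stranded kit, and the labels put all 6 in 1 batch. In the study, this comparison was part of a search for how FBXL6 may act in bladder carcinoma. The methods name a pair of siRNAs against FBXL6, and which of them entered each library was not given in the sources used here, so the numbers in the labels were read as replicate numbers. The study's methods speak of independent replicates for its data in general, and do not say of these libraries whether each came from its own culture. The p-values measure the spread between these libraries, which may be technical. The siNC libraries held 58646515, 60967902 and 56814946 counts and the siFBXL6 libraries 60968158, 60898556 and 60754015.

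The targeted gene was examined first. FBXL6 had 362, 414 and 398 counts in the siNC libraries and 398, 344 and 350 in the siFBXL6 libraries, and these ranges overlapped. Its log2 fold change was -0.13 (SE 0.088), with an adjusted p of 0.247 in edgeR's quasi-likelihood test and p = 0.2 in the exact two-sided permutation test. With 1 library left out, the log2 fold change was -0.20 to -0.09 (adjusted p 0.112 to 0.521 in edgeR's test). The smallest p that 3 against 3 libraries allow in the exact test is 0.1. Other genes overlap 37.0% of its exon sequence, and the strand setting used in counting was not given in the sources used here. Other assays of FBXL6 in transfected cells, by qRT-PCR and Western blot, belong to the study and were not analysed here. Because FBXL6 did not separate the groups in these counts, they are called here the libraries labelled siNC and the libraries labelled siFBXL6, and every direction given rests on those labels.

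The labelled cell type was compared with marker genes. Throughout, a value after ± is the SD over the libraries of a group (n = 3). The epithelial keratins KRT7 and KRT8 stood at 1038 ± 21.1 and 851 ± 17.1 counts per 1e6 counts (CPM, scaled by TMM) in the libraries labelled siNC, KRT5 at 437 ± 6.77 CPM, and the epithelial adhesion genes EPCAM and CDH1 at 274 ± 10.1 and 118 ± 2.71 CPM. Of the urothelial markers, PPARG was at 66.5 ± 1.38, GATA3 at 13.6 ± 0.706 and UPK2 at 1.41 ± 0.279 CPM in the same libraries, while KRT20, UPK1A, UPK1B and UPK3A stayed under 0.5 CPM in all 6. The mesenchymal gene VIM, looked at after the other values were known, was at 15.6 ± 0.513 CPM and 25.4 ± 0.528 CPM in the libraries labelled siNC and siFBXL6. T24 is generally known as a poorly differentiated line with high VIM and little CDH1, a profile these values do not resemble. By the study's methods its lines were authenticated by short tandem repeats. The identity of the line was not tested here, so its name stands as labelled. Each list of markers of other cell types summed to less than the 14 epithelial and urothelial markers, at 3889 ± 71.7 and 3466 ± 8.78 CPM. The 10 fibroblast markers summed to 79.0 ± 2.30 and 63.7 ± 1.64 CPM, with DCN, LUM and FAP under 0.5 CPM. THY1 was the most abundant in the libraries labelled siNC, at 36.8 ± 1.52 CPM. COL1A1 was the most abundant in those labelled siFBXL6, at 31.5 ± 0.640 CPM. COL1A1, COL1A2, COL3A1 and DCN are also on the list of matrix substrates.

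Of the 10 genes, 9 had enough counts to be tested. In the libraries labelled siFBXL6, 6 of them were higher (MMP1, MMP10, MMP14, TIMP1, TIMP2 and TIMP3), 2 were lower (MMP2 and MMP13), and MMP9 did not pass the test. MMP3 did not pass the filter on low counts. The threshold was 0.05 for the p of edgeR's test, adjusted over 21298 genes. By this rule 40.2% of all genes tested were called, 20.5% higher and 19.8% lower, so calls were common in this comparison. The median log2 fold change of the 9 genes was 0.49, beside -0.01 over all genes tested, and 7 of the 9 had a larger change than 0.28, the median size among all called genes. An adjusted p under 0.05 together with a change of at least 2-fold was reached by MMP1 alone among the 9, and by 2.92% of all genes tested. In CPM, 8 of the 9 had groups with no overlap, as had 48.2% of all genes tested. In the exact two-sided permutation test p was 0.1, the smallest possible, for each of the 10 genes except MMP9, with p = 0.9. In RNA from whole cultures, a change in the share of cells that express a gene and a change in RNA per cell cannot be told apart.

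Levels of different genes were compared per kilobase of exon. In the libraries labelled siNC the order was MMP14 (101 ± 0.996 CPM per kb), MMP1 (76.3 ± 3.11), TIMP2 (30.5 ± 0.954), MMP2 (28.5 ± 0.727), TIMP3 (20.2 ± 0.224), MMP10 (15.9 ± 0.569), MMP13 (10.0 ± 0.266), TIMP1 (3.43 ± 0.131), MMP9 (0.087 ± 0.014) and MMP3 (0.025 ± 0.015). No neighbours in this order overlapped between libraries, though MMP9 and MMP3 rest on few counts. In the libraries labelled siFBXL6, MMP1 came first at 181 ± 1.44 CPM per kb and MMP14 second at 157 ± 1.57. There TIMP2, at 33.3 ± 0.335 CPM per kb, and TIMP3, at 33.0 ± 0.351, overlapped, and MMP2 was sixth at 17.4 ± 0.366.

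The collagenases cut fibrillar collagen, and 2 of them, MMP1 and MMP13, lie in the same gene cluster on chromosome 11 and changed in opposite directions. MMP1 (GRCh38 chromosome 11, 102789920 to 102798160, minus strand), the interstitial collagenase, had 144, 150 and 157 CPM in the libraries labelled siNC and 359, 356 and 354 CPM in those labelled siFBXL6. All 3 libraries labelled siFBXL6 were above all 3 labelled siNC, by far more than the spread within either group. The log2 fold change was 1.25 (SE 0.032, 95% interval 1.18 to 1.31, adjusted p = 6.51e-26), and by log2 fold change MMP1 ranked 243 of 21298, counted from the highest. WTAPP1, a pseudogene on the opposite strand, overlaps 7.61% of the exons of MMP1, and reads from the shared stretch cannot be assigned to 1 of the pair if counting ignored the strand.

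MMP13 (chromosome 11, 102942995 to 102955734, minus strand), a collagenase known for its action on type II collagen, had 27.9, 29.3 and 28 CPM in the libraries labelled siNC. It had 20.3, 18.4 and 18.4 CPM in the libraries labelled siFBXL6, all below the lowest of the libraries labelled siNC. Its log2 fold change was -0.58 (SE 0.05, adjusted p = 2.06e-11). No other gene of the table overlaps its exons. The ratio of MMP1 to MMP13, both per kb, was 7.62 ± 0.353 in the libraries labelled siNC and 27.0 ± 1.35 in those labelled siFBXL6, a ratio formed after the values were seen and given as a description.

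The stromelysins MMP3 and MMP10 cut proteoglycans, laminin and fibronectin and can activate procollagenases. MMP10 (chromosome 11, 102770503 to 102780628, minus strand) rose from 27.1, 29.1 and 27.8 CPM to 40.2, 42.2 and 38.8 CPM, with no overlap between the groups. Its log2 fold change was 0.53 (SE 0.044, adjusted p = 5.52e-12). MMP3 (chromosome 11, 102835801 to 102843803, minus strand) was close to the limit of detection, with 4, 1 and 4 counts in the libraries labelled siNC and 15, 8 and 16 in those labelled siFBXL6. Summed over libraries and scaled by depth, 39 counts against 9 are a ratio of 4.25, with an exact 95% interval of 2.03 to 9.98 that covers counting error only. The interval takes counts as independent, while 73.1% of all counts from 1 to 10 in the table were even, beside 50.5% of those above 1000, a check chosen after the counts were seen. If 2 counts stand for 1 fragment, which the sources do not say, the interval is too narrow, and counts were also halved for that reason. With counts halved, 6 of the 10 genes were called higher. MMP3 did not pass the filter on low counts in that fit, which therefore says nothing of it. MMP3 was tested with no filter on low counts (adjusted p = 0.0159) and in 4 of the fits that left out 1 library. It passed without replicate 1 or 3 of the libraries labelled siNC (adjusted p = 0.0121 and 0.0129) and without replicate 2 of those labelled siFBXL6 (0.00607), and did not pass without replicate 2 of siNC (0.0551). In those 4 fits MMP3 passed the filter on low counts only through replicates 1 and 3 of the libraries labelled siFBXL6, where it was high. In those labelled siNC it stayed at or under 0.07 CPM, so these p-values lend it no separate support. Both stromelysins were thus counted more often in the libraries labelled siFBXL6, at levels that differ greatly per kb. WTAPP1, on the opposite strand, overlaps 1.56% of the MMP3 exons, and its part in these few counts was not tested.

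The gelatinases MMP2 and MMP9 cut denatured collagen and the type IV collagen of basement membranes. MMP2 (chromosome 16, 55389700 to 55506691, plus strand) had 138, 139 and 145 CPM in the libraries labelled siNC and 88.1, 84.8 and 85.3 CPM in those labelled siFBXL6. The groups lay far apart, and the log2 fold change of -0.71 (SE 0.032, adjusted p = 6.16e-19) was the lowest of the 9. Another gene on the same strand overlaps 3.53% of the MMP2 exons. MMP9 (chromosome 20, 46008908 to 46016561, plus strand) had 14, 12 and 10 counts against 16, 3 and 12, so the groups overlapped. Its log2 fold change was -0.24 with a 95% interval of -1.24 to 0.75 (adjusted p = 0.741), and without replicate 2 of the libraries labelled siFBXL6, which held 3 counts, it was 0.19. The few counts and their spread leave the direction of MMP9 undetermined, and a gene on the opposite strand overlaps 18.4% of the MMP9 exons.

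MMP14 (chromosome 14, 22836557 to 22849027, plus strand) encodes a membrane-anchored enzyme that activates pro-MMP2 at the cell surface, in a complex in which TIMP2 acts as the adaptor. It had 452, 449 and 457 CPM in the libraries labelled siNC and 708, 701 and 694 CPM in those labelled siFBXL6. The groups did not overlap, with a log2 fold change of 0.63 (SE 0.028, adjusted p = 3.15e-19). The activator and its substrate therefore moved in opposite directions at the level of RNA. Per kb, MMP14 over MMP2 was 3.56 ± 0.063 and 9.01 ± 0.13 in the libraries labelled siNC and siFBXL6, and TIMP2 over MMP2 was 1.07 ± 0.034 and 1.91 ± 0.058. Like the other ratios, these were formed after the values were seen and no test was made.

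**Figure D1:**
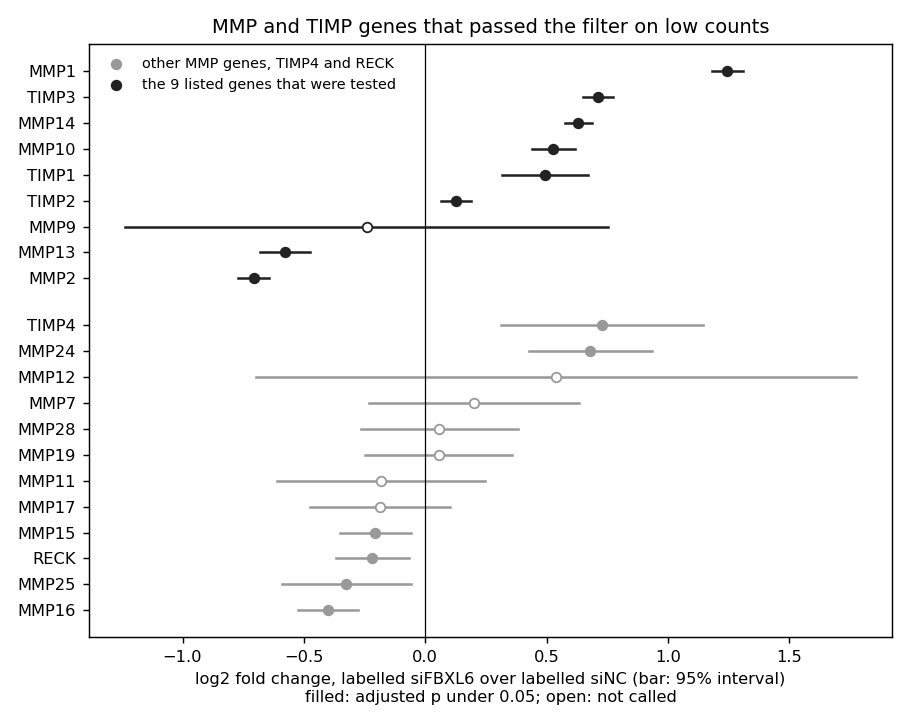
Log2 fold change of each MMP and TIMP gene that passed the filter, and of RECK, as libraries labelled siFBXL6 over siNC; bars are 95% intervals, filled points have an adjusted p under 0.05 and open points do not. Among the 9 listed genes (black) MMP1 is highest at 1.25 and MMP2 lowest at -0.71; the interval of MMP9, from -1.24 to 0.75, is the widest of the 9.

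All 3 inhibitor genes were higher in the libraries labelled siFBXL6, by unequal amounts. TIMP3 (chromosome 22, 32801701 to 32863043, plus strand), an inhibitor that stays bound to the matrix and also blocks ADAM proteases, rose from 93.1, 91.8 and 93.9 CPM to 153, 153 and 150 CPM. Its log2 fold change was 0.71 (SE 0.03, adjusted p = 1.76e-19), the second highest of the 9. TIMP1 (chromosome X, 47582313 to 47586789, plus strand), a secreted inhibitor, rose from 5.49, 5.28 and 5.09 CPM to 7.41, 6.92 and 8.0 CPM, with a log2 fold change of 0.49 (SE 0.086, adjusted p = 1.69e-05).

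TIMP2 (chromosome 17, 78852977 to 78925387, minus strand), the adaptor named above, moved least of the 3, from 175, 166 and 175 CPM to 185, 189 and 187 CPM. The groups were next to each other without overlap, and the log2 fold change was 0.13 (SE 0.031, adjusted p = 0.00119). Other genes overlap 10.0% of its exons. TIMP3 over TIMP2, per kb, went from 0.663 ± 0.015 to 0.994 ± 0.016, again as a description.

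Summed per kb, the 7 MMP genes stood at 232 ± 4.54 in the libraries labelled siNC and 385 ± 4.07 in those labelled siFBXL6, and the 3 TIMP genes at 54.1 ± 1.17 and 71.1 ± 0.123. MMP1 made up 32.9 ± 0.702% of the MMP sum in the libraries labelled siNC and 47.0 ± 0.135% in those labelled siFBXL6, and MMP2 made up 12.3 ± 0.121% and 4.53 ± 0.067%. Among the inhibitors, TIMP2 made up 56.3 ± 0.557% of the sum and then 46.8 ± 0.392%. The ratio of the MMP sum to the TIMP sum was 4.30 ± 0.124 and 5.42 ± 0.061. MMP14, by contrast with MMP1, went from 43.7 ± 0.685% to 40.8 ± 0.037% of the MMP sum. The ratio thus follows MMP1 in large part and does not describe the other MMP genes. These sums were likewise chosen after the values were seen, and a ratio of RNA levels says nothing of enzyme activity.

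Promoter sequences are shown because 6 of the genes tested were called higher, as were 20.5% of all genes tested. RefSeq promoters (GRCh38.p14) were held for 4 of the 10 genes, MMP10, MMP14, TIMP1 and TIMP3. Each runs from 250 bases before to 50 bases after the start that RefSeq gives. For MMP14, TIMP1 and TIMP3 that start differs from the gene's first position in the deposited table, given above. MMP1, MMP2, MMP3, MMP9, MMP13 and TIMP2 had no entry, so the promoters of the lower genes, MMP2 and MMP13, could not be set beside these 4. The windows are chr11:102780579-102780878 on the minus strand (MMP10), chr14:22836335-22836634 on the plus strand (MMP14), chrX:47582186-47582485 on the plus strand (TIMP1) and chr22:32801455-32801754 on the plus strand (TIMP3). Capitals mark matches, on either strand, of the AP-1 motif TGANTCA, of the TATA box TATAAA and of the GC box GGGCGG.
MMP10: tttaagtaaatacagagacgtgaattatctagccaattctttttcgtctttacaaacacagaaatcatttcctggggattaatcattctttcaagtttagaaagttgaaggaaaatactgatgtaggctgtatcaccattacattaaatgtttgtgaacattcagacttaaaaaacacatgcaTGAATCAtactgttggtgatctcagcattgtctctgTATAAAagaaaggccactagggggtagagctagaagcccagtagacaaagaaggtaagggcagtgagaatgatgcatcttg
MMP14: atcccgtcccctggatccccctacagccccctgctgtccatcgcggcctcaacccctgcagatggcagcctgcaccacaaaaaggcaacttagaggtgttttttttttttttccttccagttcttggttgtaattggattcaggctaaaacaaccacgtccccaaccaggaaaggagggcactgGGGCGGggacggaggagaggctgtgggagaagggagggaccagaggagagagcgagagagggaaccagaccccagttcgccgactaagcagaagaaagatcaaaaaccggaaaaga
TIMP1: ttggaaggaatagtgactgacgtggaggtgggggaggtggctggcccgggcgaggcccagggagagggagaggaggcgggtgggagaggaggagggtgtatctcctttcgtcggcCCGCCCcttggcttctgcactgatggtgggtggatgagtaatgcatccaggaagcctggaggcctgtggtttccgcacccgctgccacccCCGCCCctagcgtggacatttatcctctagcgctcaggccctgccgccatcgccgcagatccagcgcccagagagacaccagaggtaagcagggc
TIMP3: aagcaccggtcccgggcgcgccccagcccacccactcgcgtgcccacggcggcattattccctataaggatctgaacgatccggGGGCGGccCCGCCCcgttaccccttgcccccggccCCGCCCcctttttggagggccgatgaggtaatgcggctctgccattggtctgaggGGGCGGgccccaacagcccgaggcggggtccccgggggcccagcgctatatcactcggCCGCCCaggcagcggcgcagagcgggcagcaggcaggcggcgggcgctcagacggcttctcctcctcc

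In all, 5 motifs were searched on both strands, and this set was settled after matches had been seen. The AP-1 motif TGAGTCA, known from the promoters of several MMP genes, matched none of the 4 promoters, and 4.92% of 27305 promoters of the same length hold it. The looser TGANTCA, which includes TGAGTCA, was kept beside it and matched MMP10 once, as TGAATCA at -67 from the start, where 7.76% of promoters hold a match. TATAAA, the TATA box, also matched MMP10 alone, at -31, and 12% of promoters hold it. GGGCGG, the core of the GC box, was found 5 times in TIMP3, 2 times in TIMP1, 1 time in MMP14 and 0 times in MMP10, and 44.6% of promoters hold it. GGAA, the core bound by ETS factors, occurred in all 4 promoters and in 95.5% of all promoters, and is not marked. GC content was 36.3% in MMP10, 55% in MMP14, 65.0% in TIMP1 and 72.7% in TIMP3, beside a median of 58.3% over all promoters. A match is a description of the letters and not of a bound site.

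MMP1, MMP3, MMP10 and MMP13 belong to a cluster of MMP genes on 11q22. From YAP1 to PDGFD (chromosome 11, 102110461 to 104164379) the table lists 45 genes, of which 16 were tested, 6 were higher in the libraries labelled siFBXL6 (MMP1, MMP10, WTAPP1, BIRC3, YAP1 and RP11-864G5.3) and 2 were lower (MMP13 and PDGFD). Over all genes tested, 20.5% were called higher and 19.8% lower. This listing of the whole stretch was added after the values were seen. Of its 9 MMP genes, 5 were tested, of which MMP7 and MMP12 did not pass. MMP7, the matrilysin gene, had a log2 fold change of 0.20 (adjusted p = 0.498) and MMP12, the macrophage elastase gene, one of 0.54 with a 95% interval of -0.70 to 1.78 (adjusted p = 0.525).

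A shorter list held 9 neighbours outside the MMP family, and left out RP11-864G5.3 and 2 other tested genes of the stretch. Of its 8 tested genes, 3 were higher and 1 was lower, a called share of 50% beside 40.2% over all genes tested. WTAPP1 had a log2 fold change of 1.27 (SE 0.034, adjusted p = 2.95e-25) and BIRC3, an inhibitor of apoptosis gene, one of 1.11 (SE 0.038, adjusted p = 2.76e-22). YAP1 followed with 0.23 and PDGFD, at 1.77 ± 0.151 and 1.18 ± 0.179 CPM, was lower, with -0.58 (adjusted p = 0.0078). Without replicate 1 of the libraries labelled siNC, or scaled by library size alone, 2 of these neighbours were lower. BIRC2, next to BIRC3, was at 0.01 (adjusted p = 0.779), and TMEM123, DCUN1D5 and DYNC2H1 did not pass the test either. Changes in both directions and uncalled genes lay side by side along this stretch, and both were common over all genes tested.

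**Figure D2:**
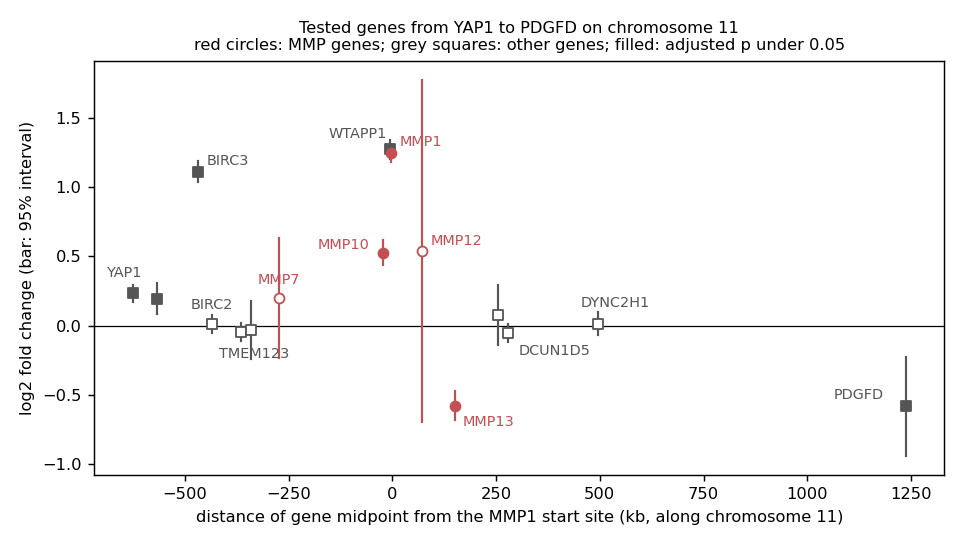
Log2 fold change of the tested genes from YAP1 to PDGFD by the distance of the gene's midpoint from the start of MMP1, in kb; red circles are MMP genes, grey squares other genes, bars 95% intervals, and filled symbols have an adjusted p under 0.05. MMP1 and WTAPP1 lie together at 1.25 and 1.27, and MMP13 lies at -0.58.

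The genes most like MMP1 over the 6 libraries were sought among the 16185 genes whose mean reached 1 CPM, by the root mean square difference of log2 CPM from each gene's own mean. WTAPP1 came first with a difference of 0.019. MMP1, on the opposite strand, overlaps 4.50% of its exons. CASP4 (chromosome 11, 104942866 to 104969436), an inflammatory caspase gene, came second with 0.031, going from 40.3 ± 2.11 to 96.2 ± 2.63 CPM. TRAF1 on chromosome 9, a TNF receptor adaptor gene, was the third, with 0.035, going from 7.14 ± 0.404 to 16.6 ± 0.373 CPM.

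Of 16 other MMP genes, 10 were tested, and 1 was higher, 3 were lower and 6 were not called. The called share of 40.0% is near the 40.2% over all genes tested, with a median log2 fold change of -0.06. MMP24, a membrane-type MMP gene, rose from 2.47 ± 0.376 to 3.95 ± 0.261 CPM, with a log2 fold change of 0.68 and an adjusted p of 3.36e-05. MMP16, also membrane-type, fell from 19.7 ± 1.22 to 14.9 ± 1.03 CPM, with a log2 fold change of -0.40 and an adjusted p of 1.35e-06. MMP15 was lower by a smaller margin, with a log2 fold change of -0.21 (adjusted p = 0.0219). Its adjusted p was 0.0783 with DESeq2, 0.177 without replicate 2 of siNC, and 0.0952 and 0.0812 without replicates 2 and 3 of siFBXL6. MMP25 had a log2 fold change of -0.32 (adjusted p = 0.047), though its groups overlapped in CPM. Its adjusted p was 0.148 with DESeq2 and 0.0507 with no filter, and without replicates 1 and 2 of siNC or 1 and 3 of siFBXL6 it was 0.0563, 0.268, 0.0733 and 0.221. Without replicate 2 of siNC the log2 fold change of MMP25 was -0.22. Each call was thus lost when any 1 of the libraries named for that gene was left out. Without replicate 3 of siNC, 2 genes of the list were higher, and without replicate 2 of siNC or 3 of siFBXL6, 1 was lower. Of the 16, 7 stayed under 0.5 CPM in every library, the neutrophil collagenase MMP8 among them.

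Of 4 other inhibitors, 2 were higher and 1 was lower, a called share of 75% beside 40.2% over all genes tested. TFPI2, a Kunitz-type inhibitor found in the matrix, rose from 18.3 ± 0.898 to 38.3 ± 1.09 CPM, a log2 fold change of 1.07 (SE 0.047, adjusted p = 4.88e-19). TIMP4 was near 1 CPM, at 0.841 ± 0.158 and 1.39 ± 0.045 CPM, with a log2 fold change of 0.73 (adjusted p = 0.00433). RECK, a membrane-anchored inhibitor, was lower, with a log2 fold change of -0.22 (adjusted p = 0.0179), though its groups overlapped. That call was lost with DESeq2 (adjusted p = 0.0689) and without replicates 2 and 3 of siFBXL6 (0.108 and 0.0603). It was also lost without replicate 2 of siNC, at a log2 fold change of -0.13 (adjusted p = 0.214). The broad-spectrum inhibitor gene A2M, named after its values were seen, had a log2 fold change of 0.05 (adjusted p = 0.866).

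The ADAM and ADAMTS genes encode related metalloproteinases that shed membrane proteins or cut proteoglycans. Of 28 listed, 19 were tested, with 6 higher and 5 lower and a median log2 fold change of -0.09. The called share was 57.9%, beside 40.2% over all genes tested. ADAM8 rose from 1.15 ± 0.216 to 3.66 ± 0.069 CPM, a log2 fold change of 1.66 (adjusted p = 3.47e-11), and ADAMTS9 had a log2 fold change of 0.65 (adjusted p = 6.92e-15). ADAMTS15 was lower, with a log2 fold change of -0.91 (adjusted p = 1.76e-09). The sheddase gene ADAM10 had one of -0.28 (adjusted p = 2.24e-09), at 303 ± 8.22 and 251 ± 3.50 CPM. ADAM9, ADAMTS7 and ADAMTS12, named after their values were seen, were the other 3 lower genes, with log2 fold changes of -0.11, -0.52 and -0.36. The remaining higher genes, named in the same way, were ADAM12, ADAM17, ADAM19 and ADAM28, with 1.53, 0.12, 0.21 and 0.19. ADAM12 was low, at 0.258 ± 0.249 and 0.740 ± 0.148 CPM, and the groups of ADAM17 overlapped. With DESeq2, without replicate 3 of siNC or without replicate 2 of siFBXL6, 4 genes of the list were higher.

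Among genes listed for their part in the activation of pro-MMPs, which include the receptor gene PLAUR, more were higher than lower. Of 16 tested, 10 were higher (7 to 10 under the other settings) and 1 was lower, with a median log2 fold change of 0.17. The called share was 68.8%, beside 40.2% over all genes tested. PLAU, the urokinase gene, rose from 174 ± 1.08 to 303 ± 3.31 CPM, a log2 fold change of 0.80 (SE 0.029, adjusted p = 2.09e-21). Its receptor gene PLAUR had a log2 fold change of 0.67 (adjusted p = 5.97e-18), CTSS, which encodes cathepsin S, one of 0.62 (adjusted p = 3.00e-13), and PLAT, the tissue plasminogen activator gene, one of 0.31 (adjusted p = 2.4e-10). The only one lower was the kallikrein gene KLK6, at 0.754 ± 0.243 and 0.182 ± 0.141 CPM, with a log2 fold change of -2.04, named after its values were seen. Without replicate 1 of the libraries labelled siNC, 2 genes of this list were lower, and with at least 10 counts asked of every library, 0 were.

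Genes for matrix proteins that MMPs cut were called in both directions. Of 18 tested, 6 were higher, 6 were lower and 6 were not called, with a median log2 fold change of -0.07. The called share was 66.7%, beside 40.2% over all genes tested. LAMA3 and LAMB3, which encode laminin chains of epithelial basement membranes, had log2 fold changes of 1.60 and 0.70. COL4A1, a type IV collagen chain, fell from 737 ± 19.6 to 367 ± 1.5 CPM, a log2 fold change of -1.01 (SE 0.029, adjusted p = 1.98e-24).

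Cytokines and growth factors known to induce MMP genes were mostly higher. Of 15 tested, 10 were higher and 2 were lower (TGFB1 and PDGFA, named after their values were seen), with a median log2 fold change of 0.49. The called share was 80.0%, beside 40.2% over all genes tested. IL1B, an inflammatory cytokine gene, rose from 143 ± 2.35 to 395 ± 2.84 CPM, a log2 fold change of 1.47 (SE 0.03, adjusted p = 9.27e-29). HBEGF, which encodes a ligand of the EGF receptor, had a log2 fold change of 1.15 (adjusted p = 2.95e-25), and AREG and IL1A had 0.49 and 0.51. TNF stayed under 0.5 CPM in every library. Without replicate 2 of siFBXL6, 1 gene of the list was lower.

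Among transcription factors known at MMP promoters, 19 were tested. In the libraries labelled siFBXL6 9 were higher, 3 were lower (JUNB and, named after their values were seen, ATF3 and RUNX2) and 7 were not called. The called share was 63.2%, beside 40.2% over all genes tested, and the median log2 fold change was 0.10. Of the AP-1 genes, FOSL1 had a log2 fold change of 0.41 (SE 0.033, adjusted p = 3.38e-12), and JUNB was lower, at -0.57 (SE 0.049, adjusted p = 1.43e-11). JUN and FOS were higher too, at 0.32 and 0.46 (adjusted p = 6.35e-11 and 0.000677), and FOSB, FOSL2 and JUND were not called. These 5 genes were named after their values were seen. NFKB1 had a log2 fold change of 0.42 (adjusted p = 1.83e-11) and ETS1 one of 0.34 (adjusted p = 3.4e-11).

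Some values from other genes moved with the groups, and their part in the results above was not tested. Of 10 leukocyte markers, 3 of the 6 tested were higher in the libraries labelled siFBXL6 (CD68, CSF1R and S100A8). The 10 summed to 17.5, 16.2 and 16.9 CPM in the libraries labelled siNC and 38.7, 39.0 and 39.0 CPM in those labelled siFBXL6, and S100A8 was the most abundant in the former and CD68 in the latter. The defining leukocyte gene PTPRC was at 0.508 ± 0.166 and 0.331 ± 0.099 CPM, and CD3E, LYZ, ITGAM and FCGR3B were among those under 0.5 CPM in every library. Of 6 endothelial markers, PECAM1 alone among the 5 tested was called, and the list summed to 2.99 ± 0.227 and 3.90 ± 0.517 CPM. Of 9 fibroblast markers tested, 0 were higher and 3 were lower (COL1A1, POSTN and THY1), and of 10 epithelial and urothelial markers tested, 1 was higher (CDH1) and 6 were lower. The called shares were 50% for leukocyte, 20% for endothelial, 33.3% for fibroblast and 70% for epithelial and urothelial markers. Over all genes tested the share was 40.2%. The 14 epithelial and urothelial markers, KRT7 the most abundant, summed to 3938, 3807 and 3923 CPM in the libraries labelled siNC and 3474, 3457 and 3468 CPM in those labelled siFBXL6. Mitochondrial genes took 5.82%, 6.28% and 6.29% of the counts in the libraries labelled siNC and 5.33%, 5.30% and 5.45% in those labelled siFBXL6. GAPDH had a log2 fold change of 1.80 (adjusted p = 4.9e-31) and ACTB one of 0.00 (adjusted p = 0.996), and the sign of the latter turned with upper-quartile scaling and with library size alone, both at -0.02.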

How the data were processed

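RNA-seq counts of cells labelled T24 were used as deposited by the authors: whole-number counts per gene for 3 siNC and 3 siFBXL6 libraries, not normalised, with 56814946 to 60968158 counts a library. Per the submitters' processing notes, reads were handled with fastp 0.23.0 and STAR on GRCh38 and counted with featureCounts (Subread 1.5.1), while the study's methods name another trimmer and aligner. The strand and multi-mapping settings were not given. Exon length is the deposited length column in bases.

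Of 56303 genes, 38192 had a count and 21298 passed filterByExpr in edgeR 4.0.16 (R 4.3.3). They were fitted by group with TMM scaling and the quasi-likelihood F test, with Benjamini-Hochberg adjustment over all genes tested. The common coefficient of variation between libraries was 3.57%. SEs are the log2 fold change over the root of F, and 95% intervals use its degrees of freedom. Exact two-sided permutation tests used scipy 1.17.1, and ratios of low counts carry exact 95% intervals for counting error only. Levels of different genes are CPM per kb of exon.

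The members and lists were chosen with earlier results of these data known. Named genes are the 10 members, FBXL6, GAPDH and ACTB, in each list the 4 called genes of lowest adjusted p with a mean of at least 1 CPM, and the 3 genes most like MMP1; 1 gene of the matrix list that the rule names is not reported here. Ratios, sums, VIM, the stretch of 11q22, MMP7, MMP12 and uncalled neighbours there were added after values were seen. Alternatives were other scalings, DESeq2 1.42.0, other filters and thresholds, a replicate block, each library left out, and counts halved, the last added after the data were seen.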

Additional observations from a re-analysis of the deposited data

How the results depend on the processing

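Of 124 values of the 9 tested members under alternative settings, 123 kept their direction and their side of the threshold. The exception was MMP9, not called in any, at -0.69 to 0.19 on the log2 scale with 1 library left out. Members called were 6 to 7 higher, the 7 including MMP3, and 2 lower. In the fits with 1 library left out, MMP3 passed the filter only through the libraries labelled siFBXL6. Asking also for a 2-fold change left 1 higher and 0 lower, which follows from the stricter rule. Of 434 values of 31 other named genes, 420 kept direction and call, and 14 kept direction but lost the call (MMP15, MMP25 and RECK).

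With DESeq2, 1 other MMP gene and 0 other inhibitors were lower, and 4 ADAM and ADAMTS genes were higher. Activators called higher were 7 with DESeq2, upper-quartile scaling, library size alone or no filter, and 7 to 10 with 1 library left out. With at least 10 counts in every library, 0 activators were lower, and with library size alone 2 of the 11q22 neighbours were. With 1 library left out, other MMP genes were 1 to 2 higher and 1 to 3 lower, inhibitors 0 to 1 lower, and activators, inducers and 11q22 neighbours each 1 to 2 lower. The log2 fold change of ACTB was -0.0192 with upper-quartile scaling, -0.0218 with library size alone, -0.000833 with no filter, -0.00361 with counts halved, and -0.0176 to 0.0175 with 1 library left out. The causes were not tested.

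Over all genes, 3683 to 4392 were higher and 3364 to 4777 lower. With replicate numbers as a block, 6 members were higher and 2 lower, and 4298 and 4110 of all genes. Deviations of equally numbered libraries correlated over 15862 genes, which are not independent replicates, at -0.060, 0.004 and -0.003. MMP3 and MMP9 rest on few counts.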
